A study of Mus musculus with 34 samples.

Results

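The cytosolic ribosome is built from ribosomal RNA and many different proteins, and the genes described here encode those proteins. They were chosen by name from the 2 deposited count tables: every gene symbol made of Rpl or Rps, a number and at most a short suffix, together with Rpsa, Rplp0, Rplp1, Rplp2 and Fau. Names of pseudogenes ending in -ps and the S6 kinases were left out. The rule gave 88 genes in each table, of 24951 rows for hepatocytes and 26233 for macrophages. In each cell type 85 of the 88 passed a filter on low counts and were tested, among 9679 genes in hepatocytes and 10815 in macrophages. Rpl39l had 2 counts over all hepatocyte libraries and 81 over all macrophage libraries, Rpl3l had 5 and 24, and Rps3a2 had 20 and 13. These 3 were not tested.

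The samples were hepatocytes and liver macrophages of mice of a mixed B6;129P background. All mice carried floxed Yap and Taz alleles, and all received tamoxifen at 1.6 mg/kg on 5 days at 7 to 8 weeks of age, with 3 weeks of washout. Knockout mice also carried Opn-iCreERT2, a Cre recombinase driven by the osteopontin promoter and switched on by tamoxifen, which the study used to delete both genes in bile duct cells. Controls were siblings without the Cre. Carbon tetrachloride (CCl4), which injures the hepatocytes around the central veins, was given to part of each genotype at 1 ml/kg, 48 h before the cells were taken. The 8 groups were hepatocytes of 6 control and 5 knockout mice without CCl4 and of 3 control and 4 knockout mice with it, and macrophages of 4 mice in each of the same 4 conditions. Bile duct cells, in which the Cre is meant to act, were not among the cells sequenced. The comparisons ask how injury and the biliary loss of YAP and TAZ bear on ribosomal protein mRNA in 2 other cell types of the liver.

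Ribosomal proteins are needed in nearly equal numbers, and their genes are transcribed at high and matched rates in growing cells. Their mRNAs begin with a run of pyrimidines, the terminal oligopyrimidine or TOP motif, through which LARP1 and the mTOR pathway hold back or release their translation. A resting hepatocyte makes large amounts of secreted protein and divides rarely. After injury or partial removal of the liver, hepatocytes build new ribosomes before they copy their DNA. Many ribosomal protein genes also have processed pseudogenes, copies of the spliced mRNA inserted elsewhere in the genome, and short reads from the 3′ end can match both.

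Hepatocyte libraries had between 931496 and 7535053 counts, macrophage libraries between 596380 and 5128587. The numbers of the sequencing files fall into 2 series. The first series held 5 hepatocyte libraries (control mice 2, 7 and 8 without CCl4, and control mice 12 and 15 with it) and 2 macrophage libraries (control mouse 8 without and control mouse 11 with CCl4), and every knockout library was in the second series. Whether the series differ in more than their file numbers is not given in the sources used here. For hepatocyte mouse 15 and macrophage mouse 11, 1 label says knockout and 2 say control, and both were kept as controls. A summed list of 12 hepatocyte markers reached 73364 to 119529 CPM (library-size-scaled counts, the usual unit of abundance in count tables) in hepatocyte libraries and 476 to 39416 CPM in macrophage libraries. A list of 12 Kupffer cell markers reached 7093 to 26144 CPM in macrophage libraries and 8.55 to 1439 CPM in hepatocyte libraries, with Folr2 at 0 in 3 of the 4 hepatocyte groups and in macrophages of controls after CCl4. Each list was thus higher in libraries of its own cell type. In some macrophage libraries, however, the hepatocyte sum was above the Kupffer sum. In knockouts after CCl4 these were mouse 13 (39416 against 7093 CPM) and mouse 14 (33294 against 8124 CPM). In controls they were mouse 12 after CCl4 (18997 against 9784 CPM) and mice 7 and 8 without it. Stellate and endothelial marker sums reached 5616 and 3237 CPM in macrophage libraries. The part that RNA of other cell types plays in the results below was not tested.

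The motif these genes are known for was more frequent at their annotated starts than over all promoters, but most windows lacked it. A promoter window (250 bases before to 50 after the annotated start, GRCm38.p6, RefSeq) was found for 64 of the 88 genes. The start base was C followed by 4 pyrimidines in 14 of the 64 (21.9%) against 2.49% of 27025 promoters. A run of at least 8 pyrimidines close to the start was found in 25 (39.1%) against 11.5%. The motif CCGGAAGT of ETS factors, searched on both strands, was in 12 (18.8%) against 4%. The YY1 motif AAGATGGC, on both strands, was in 6 (9.38%) against 2.88%. TATAAA on the coding strand was in 7 (10.9%) against 8.88%. The windows below reach from 40 bases before the start through the first 20 bases of the transcript, 5′ to 3′ on the coding strand. The first 5 belong to genes with C and 4 pyrimidines at the start, and the next 4 to genes that the comparisons below turn on but that have no such start in RefSeq. Capitals mark the longest pyrimidine run of 8 or more close to the start. A further run upstream of it in Rps27l is left in lower case.
Rplp2 (chr7:141447611-141447670, plus strand): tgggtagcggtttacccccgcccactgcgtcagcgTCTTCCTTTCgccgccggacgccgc
Rpl35 (chr2:39005112-39005171, minus strand): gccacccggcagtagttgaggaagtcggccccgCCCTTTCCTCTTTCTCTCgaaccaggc
Rpl14 (chr9:120571477-120571536, plus strand): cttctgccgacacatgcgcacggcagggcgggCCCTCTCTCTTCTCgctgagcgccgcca
Fau (chr19:6057907-6057966, plus strand): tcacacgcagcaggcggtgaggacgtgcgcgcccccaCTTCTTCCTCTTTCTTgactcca
Rps10 (chr17:27635225-27635284, minus strand): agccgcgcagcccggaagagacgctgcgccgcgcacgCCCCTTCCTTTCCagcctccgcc
Rpsa (chr9:120127726-120127785, plus strand): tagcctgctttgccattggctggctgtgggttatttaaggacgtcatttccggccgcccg
Rps19 (chr7:24884552-24884611, plus strand): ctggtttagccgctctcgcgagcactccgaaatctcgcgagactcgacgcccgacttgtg
Rps12 (chr10:23787190-23787249, minus strand): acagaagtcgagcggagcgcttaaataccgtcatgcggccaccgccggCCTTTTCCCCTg
Rps27l (chr9:66946046-66946105, plus strand): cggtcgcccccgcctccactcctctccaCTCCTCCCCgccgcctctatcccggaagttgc
In Rplp2, Rpl35, Rpl14, Fau and Rps10 the run covers the start base itself, in Rps12 it begins 8 bases after it, and in Rps27l it ends before it. The windows of Rpsa and Rps19 hold no run of that length. A missing match says only that these letters are not in this window, and 3′ tags do not show where a transcript begins.

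Ribosomal protein mRNAs took the smallest share of counts in hepatocytes of uninjured control mice and a larger one after CCl4. The 88 genes together held 0.579% to 0.928% of all counts in the 6 control hepatocyte libraries (median 0.802%). After CCl4 the 3 control libraries held 1.21%, 1.31% and 1.86%, all above the 6 without it, and the mean was 1.87 times as high. In knockout mice the share was 0.81% to 1.46% without CCl4 (5 libraries, median 1.15%) and 1.72% to 2.33% after it (4 libraries, median 1.85%), again without overlap and with a mean ratio of 1.74. Shares in macrophages were higher and varied less with injury. They were 1.34% to 2.26% in controls without CCl4 (median 1.9%) and 2.33% to 2.74% in controls with it (median 2.58%), a ratio of 1.38 without overlap. In knockout macrophages they were 1.99% to 2.59% without and 2.07% to 2.78% with CCl4, a ratio of 1.07 with overlap. Sorted cells are bulk samples, so fewer cells of a type and less RNA per cell cannot be told apart, and a share can rise because other transcripts fall.

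**Figure D1:**
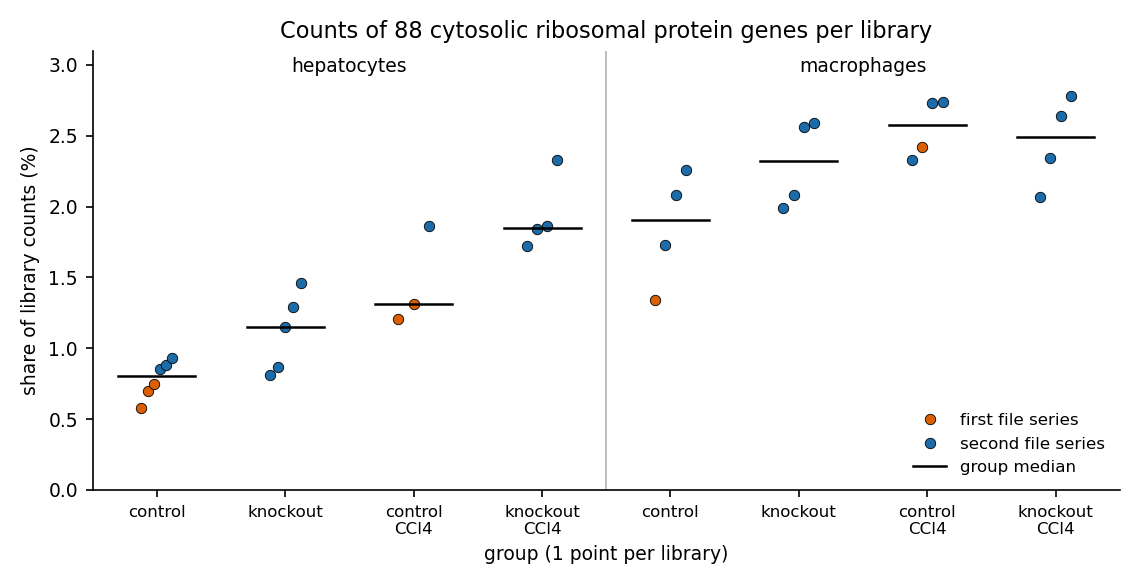
Share of each library's counts held by the 88 genes, in percent, for the 8 groups, with 1 point per library coloured by file series and a line at the group median. The hepatocyte libraries after CCl4 lie above those of the same genotype without it, and the first-series points are the lowest of the uninjured control groups.

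The file series moved the share within a group. In uninjured control hepatocytes the 3 first-series libraries held 0.579% to 0.75% and the 3 second-series libraries 0.854% to 0.928%. Within the first series the ratio of CCl4 over none was 1.87 (2 against 3 libraries), and in the second 2.1 (1 against 3). The knockout ratio without CCl4 was 1.43 over all libraries, with overlap, and 1.26 against second-series controls. After CCl4 it was 1.33 over all libraries and 1.04 against the single second-series control. The share of mitochondrially encoded counts also differed, with 28.8% to 35.1% in first-series and 19.6% to 29.8% in second-series hepatocyte libraries. With those counts left out of the total, the median share was 1.1% in controls, 1.51% in knockouts, 1.85% in controls after CCl4 and 2.34% in knockouts after CCl4, in the same order as before.

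In control hepatocytes CCl4 raised 22 of the 85 genes tested (25.9%) and lowered 1, where 13.7% of all 9679 genes rose and 13.7% fell (edgeR's quasi-likelihood test, adjusted p under 0.05 over all genes, 3 against 6 mice). The members' median log2 fold change was 0.56, against -0.01 over all genes, and 0.30 without mouse 16 of the CCl4 group. Of the 85, 81 had a value above 0, as did 49.5% of all genes. Both subunits took part: 11 of 35 small subunit genes and 11 of 50 large subunit genes rose, with medians of 0.59 and 0.51. In 18 members every CCl4 library lay above every uninjured library, which held for 12% of all genes. The fold changes were small, from 0.48 to 1.34 for the genes that rose, with 1 exception, Rps12.

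Rpsa, a small subunit protein that also serves as a laminin receptor at the cell surface, stood at 34.6, 37, 37.3, 39.9, 47.5 and 49.9 CPM in the 6 uninjured controls. After CCl4 it stood at 80.9, 91.1 and 99.8 CPM, so the groups were far apart and both file series were alike. Its log2 fold change was 1.15 (SE 0.221, adjusted p = 0.000573). Rps19, the gene most often mutated in Diamond-Blackfan anaemia, rose by 1.34 (SE 0.276, adjusted p = 0.00107). It stood at 48.8 to 90.2 CPM without CCl4 and at 105, 126 and 268 CPM with it, the highest value being that of mouse 16, the only second-series library of its group. Rpl35, beside the tunnel through which the new protein leaves, rose by 0.99 (SE 0.234, adjusted p = 0.00306), and Rpl13a, which can be released from the ribosome to silence inflammatory mRNAs, by 0.94 (SE 0.22, adjusted p = 0.0031). Rps12 had the largest change, 2.16 (SE 0.658, adjusted p = 0.0218), but it rested on mouse 16. That library had 69.8 CPM, while mice 12 and 15 had 13 and 8.74 CPM and the 6 uninjured controls 4.1 to 15.3 CPM, so the groups overlapped.

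Among parts of the ribosome, the 3 genes of the stalk that recruits translation factors had a median of 0.61 in controls. In controls Rplp2 rose by 0.63 (SE 0.177, adjusted p = 0.0112) and Rplp0 by 0.49 (SE 0.176, adjusted p = 0.0429), while Rplp1 had 0.61 (adjusted p = 0.0628). Rplp2 stood at 239 to 338 CPM in uninjured controls and at 394, 395 and 479 CPM after CCl4, with no overlap. Rplp1 stood at 124 to 241 CPM in uninjured controls and at 145, 255 and 322 CPM after CCl4, with overlap. The 8 genes around the exit tunnel ran from 0.46 to 0.99, with a median of 0.6 and with Rpl35 and Rpl31 called. Of the 8 genes that line the mRNA path, which ran from 0.21 to 0.93, Rps26 was called. Rpl5 and Rpl11, which carry 5S rRNA and bind Mdm2 when ribosome assembly fails, had 0.51 (adjusted p = 0.138) and 0.30 (adjusted p = 0.45). Fau, made as a fusion with a ubiquitin-like protein, had -0.16 (adjusted p = 0.601). Rps6, the target of the S6 kinases, had 0.73 with an SE of 0.729. Rps4l was the single gene that fell, by 1.21 (SE 0.36, adjusted p = 0.0157), from 3.18 to 19.5 CPM down to 4.25 to 6.79 CPM, with overlap. It is annotated as a transcribed processed pseudogene.

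In knockout mice, in a comparison that shares no library with that in controls, 21 of 85 members rose with CCl4 and 0 fell, against 7.02% of all genes that rose, and 79 of 85 had a value above 0 (48.5% of all genes). The members' median was 0.5, against -0.02 over all genes. In 21 members every CCl4 library lay above every uninjured knockout library, against 6.72% of all genes. Of the members that rose, 15 did so in both genotypes. That is 68.2% of the 22 in controls and 71.4% of the 21 in knockouts. Over all genes 519 rose in both, of 1324 that rose in controls and 679 in knockouts. The members' share was thus above that of all genes in controls but not in knockouts. The fold changes with CCl4 in controls and knockouts correlated less over the 85 members (Pearson 0.424) than over all 9679 genes (0.664). Of the 85 members, 77 had values above 0 in both genotypes. All 3 stalk genes were called in knockouts: Rplp2 (0.81, SE 0.171, adjusted p = 0.00316), Rplp0 (0.68) and Rplp1 (0.87). Rplp2 stood at 233 to 405 CPM in uninjured knockouts and at 508, 527, 543 and 606 CPM after CCl4. Rpl37a rose by 0.74 (SE 0.172, adjusted p = 0.00589), Rpsa by 0.89 and Rps19 by 0.98. Rps12 had 0.74 there and was not called. No member was called for a difference between the genotypes in the effect of CCl4, where 0.217% of all genes were. By edgeR 0 of 85 members had an unadjusted p under 0.05 for it, DESeq2 called 0, and the median difference was 0. Without control mouse 16 after CCl4 that median was 0.25.

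**Figure D2:**
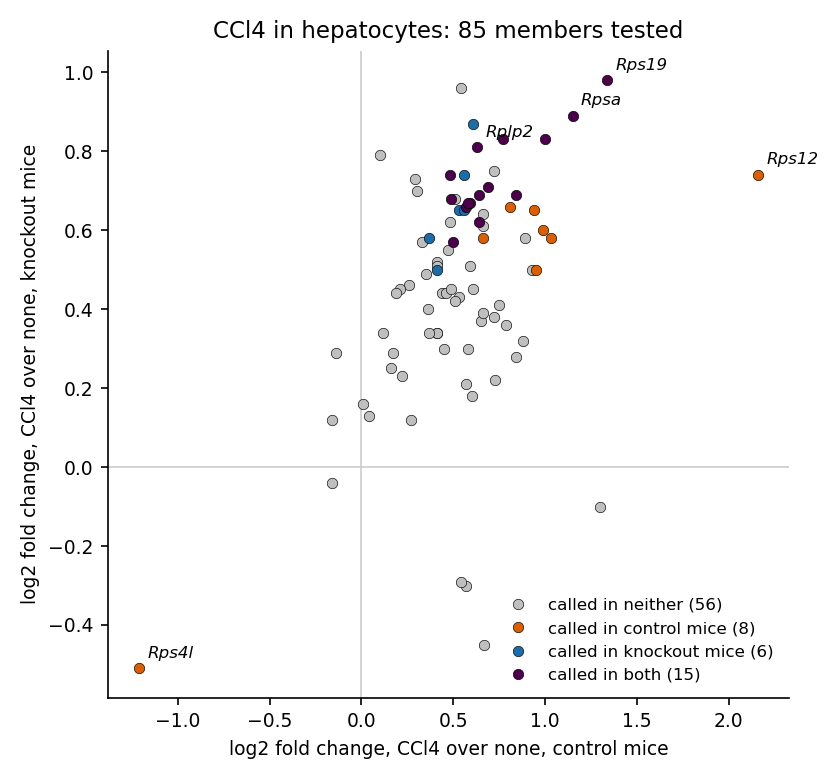
Log2 fold change of CCl4 over none in hepatocytes of control mice (x axis) and knockout mice (y axis), 1 point for each of the 85 members tested, coloured by the comparison in which it was called. Most points lie above 0 on both axes, with 15 called in both genotypes, and Rps12 and Rps4l lie far out on the x axis.

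Single libraries and the file series moved these counts. Without control mouse 16 after CCl4 the count called in controls was 10 in place of 23. In the second series alone, where mouse 16 is the only control after CCl4 and was assumed to vary like the other groups, it was 4, while the members' median was 0.76. A fit with a term for the file series gave 40. In knockouts it was 7 without uninjured mouse 10, 9 without CCl4 mouse 18, and 11 without uninjured mouse 21 or CCl4 mouse 14. Markers of other cells moved with CCl4 in control hepatocytes: 4 of 11 tested Kupffer cell genes and 4 of 9 stellate cell genes rose, as did 2 of 5 biliary genes, while 7 of 12 hepatocyte genes fell. The Kupffer sum was 348 to 489 CPM against 8.55 to 190 CPM. In knockouts 0 of those 11 and 0 of those 9 were called, 2 of 5 biliary genes rose and 4 of 12 hepatocyte genes fell, and the Kupffer sum was 154 to 357 CPM after CCl4 and 126 to 1439 CPM without it.

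**Figure D3:**
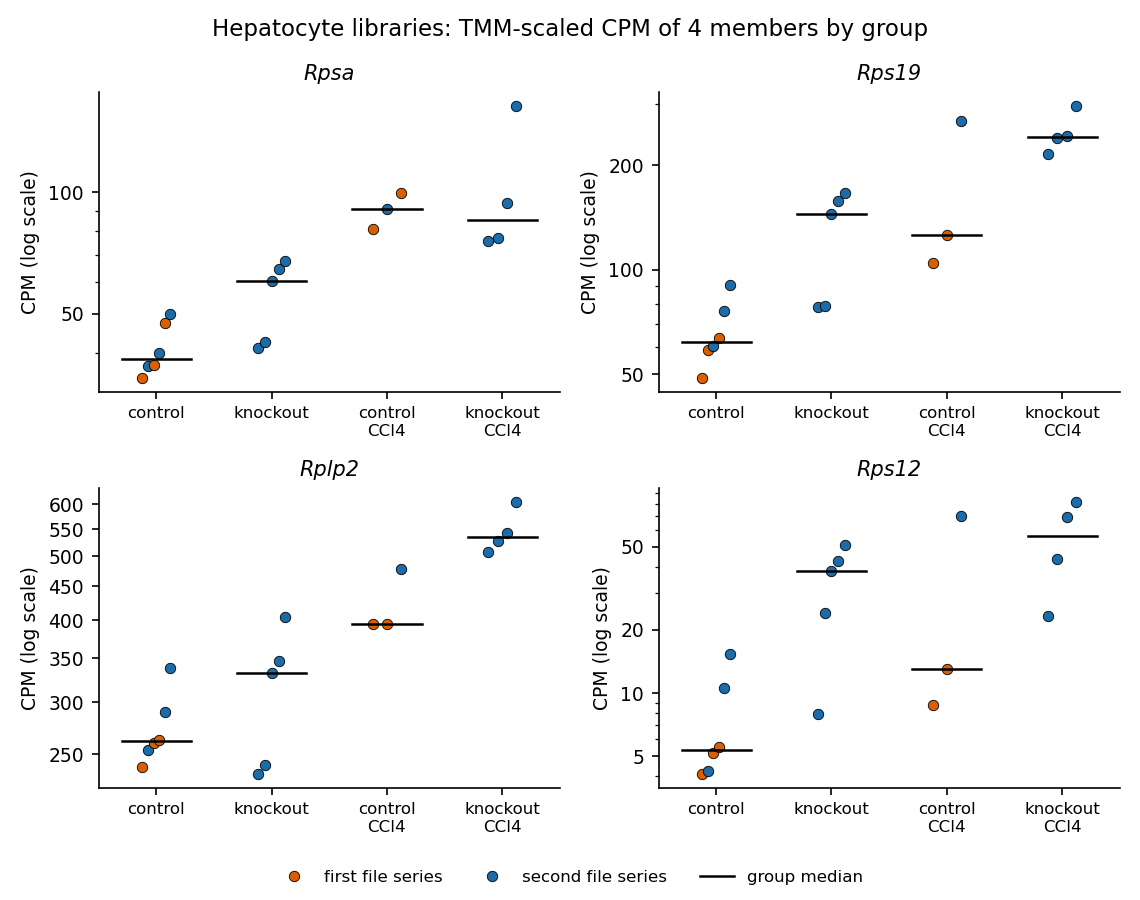
CPM (log axis, scaled by TMM) of Rpsa, Rps19, Rplp2 and Rps12 in every hepatocyte library by group, coloured by file series, with the group median as a line. Rpsa and Rplp2 separate by CCl4 within each genotype, and the high Rps12 point among the injured controls is mouse 16 at 69.8 CPM.

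Few members differed between knockout and control hepatocytes, and the file series could not be set aside in this comparison. Without CCl4 6 of 85 (7.06%) rose and 0 fell, against 4.64% of all genes that rose, with a median of 0.32 (all genes 0.01). They were Rpl12 (0.86, SE 0.215, adjusted p = 0.0198), Rps19 (0.94, SE 0.248, adjusted p = 0.0259), Rpl13 (0.85, SE 0.235, adjusted p = 0.0319), Rps12 (2.33, SE 0.617, adjusted p = 0.0325), Rpl36a and Rplp1. Rps19 stood at 78, 78.7, 145, 158 and 167 CPM in knockouts, so 2 of the 5 libraries lay within the control range of 48.8 to 90.2 CPM. Rps12 stood at 7.94, 24, 38.2, 42.6 and 51.1 CPM. No member had all 5 knockout libraries above all 6 controls, which held for only 1.79% of all genes. A fit with a term for the file series called 0, with a median of 0.12, and in the second series alone the values were 0 and 0.15. The count was also 0 without control mouse 8 or knockout mouse 4 or 5, 1 without control mouse 2 or 7 or knockout mouse 20, and 12 without control mouse 16 after CCl4. Of 11 Kupffer cell markers 7 rose in the same comparison, as did 2 of 5 biliary ones, and 1 of 12 hepatocyte markers fell. After CCl4 no member was called by genotype, as were 0.176% of all genes. By edgeR 9 members had an unadjusted p under 0.05, DESeq2 called 0, and the median was 0.34. That median was -0.11 in the second series alone, 0.21 without control mouse 12 or knockout mouse 18, 0.22 without control mouse 15 and 0.55 without control mouse 16. Rplp1 had the highest value, 1.01 (SE 0.268, adjusted p = 0.16), and Rps10 the lowest, -2.98 (SE 0.983, adjusted p = 0.258). The count was 7 without control mouse 16.

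Rps10 set the 2 file series apart in both cell types. This small subunit protein, which is ubiquitinated when ribosomes collide, stood at 28.9, 43.6, 43.6, 52.8 and 56.3 CPM in the 5 first-series hepatocyte libraries and at 1.8 to 14 CPM in the 13 others. In macrophages it stood at 51.1 and 106 CPM in the 2 first-series libraries and at 1.73 to 14.3 CPM in the 14 others. The groups of the study do not order these values, since controls without CCl4 from the second series stood at 1.8, 3.18 and 3.52 CPM. Its log2 difference of second over first series, in a fit with series as a term, was -3.79 in hepatocytes (SE 0.395, adjusted p = 1.51e-06) and -3.09 in macrophages (SE 0.405, adjusted p = 0.000299). Rps10 shares 67.7% of the 50-base windows in its last 300 bases with other annotated genes, and 3 named copies held 3.69 times as many counts as Rps10 itself in hepatocytes.

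More members than Rps10 followed the series. In that fit 23 of 85 members were higher and 4 lower in second-series hepatocyte libraries, against 3.52% and 3.16% of all genes. Among uninjured controls alone, 28 members had all 3 second-series libraries above all 3 first-series ones, against 8.29% of all genes, and 7 the reverse, against 12.8%. Over all 18 hepatocyte libraries 11 members separated the series with no overlap (2.72% of all genes), and over the 16 macrophage libraries 11 did (1.39%). Rps10, Rpl27, Rpl38 and Rps23 did so in both. Rps23, at the decoding centre, stood at 10.5 to 20.8 CPM in first-series and 25.3 to 81.9 CPM in second-series hepatocytes. In macrophages it stood at 26 and 50 CPM against 77.6 to 275 CPM (log2 difference 2.13, SE 0.329, adjusted p = 0.0018). Rpl38, known for its part in the translation of Hox mRNAs, stood at 95.1 to 137 against 179 to 579 CPM in hepatocytes. In macrophages 3 members were called by series, Rps10, Rps23 and Rpl38, against 0.472% of all genes. All knockout libraries are in the second series, so these genes cannot be read for genotype without regard to it.

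**Figure D4:**
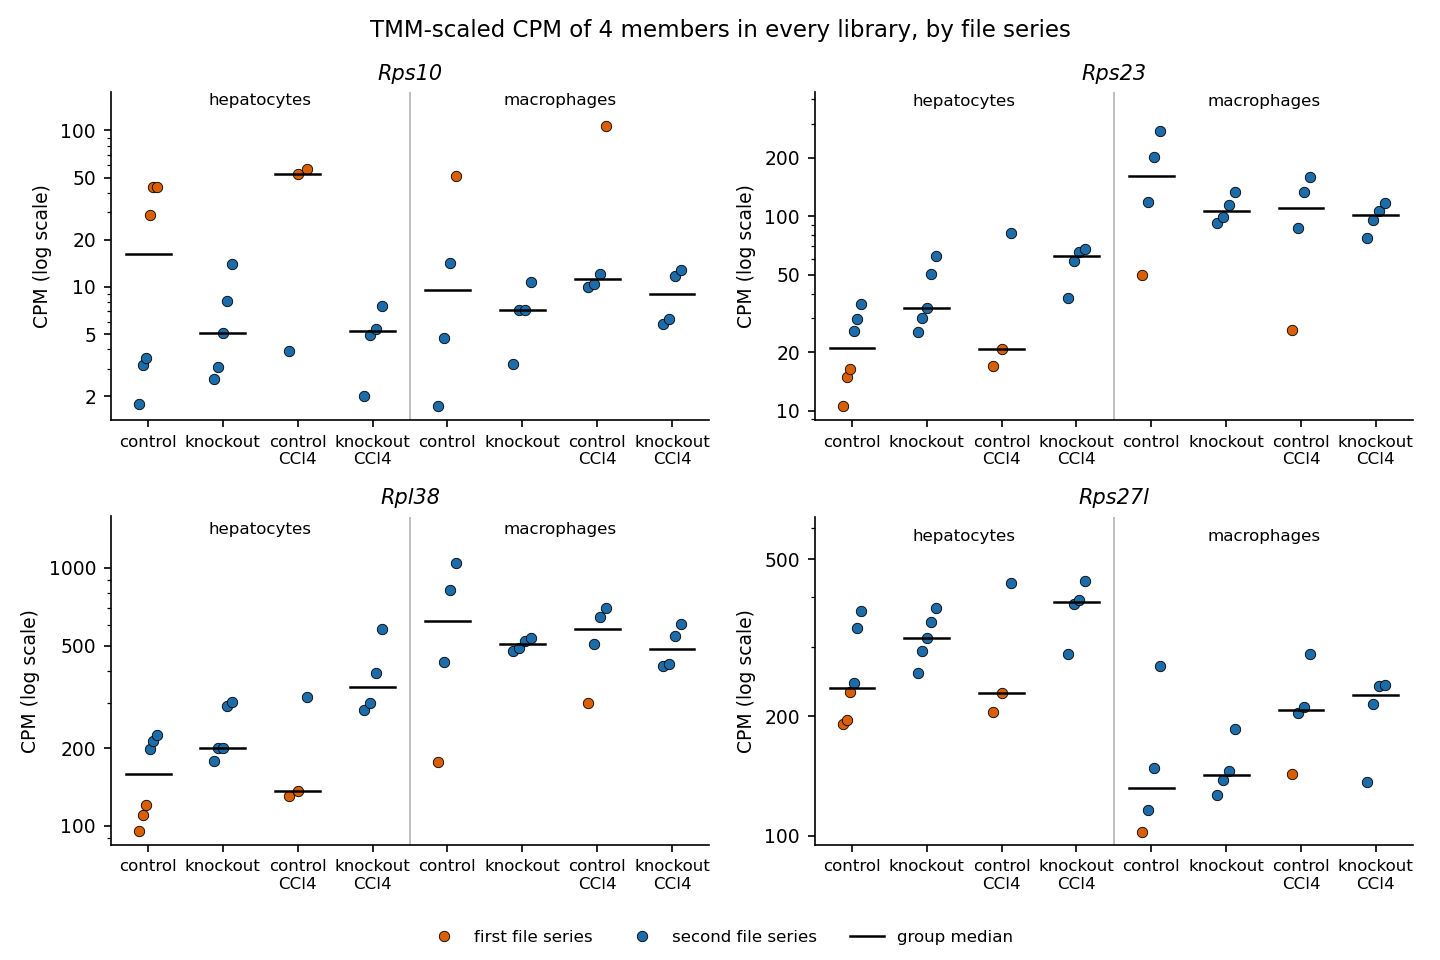
CPM (log axis, scaled by TMM) of Rps10, Rps23, Rpl38 and Rps27l in all 34 libraries by group, coloured by file series and scaled within each cell type, with the group median as a line. For Rps10 every first-series point lies above every second-series point of its cell type. For Rps23 and Rpl38 it is the reverse in both cell types, and for Rps27l it is the reverse in hepatocytes.

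In macrophages of control mice CCl4 raised 13 of 85 members (15.3%) and lowered 0, against 6.77% of all 10815 genes that rose. The members' median was 0.25 and that of all genes -0.03. It was 0.09 without uninjured mouse 8, the only first-series library of its group, and 0.13 without CCl4 mouse 15. In 18 members every CCl4 library lay above every uninjured one, against 9.57% of all genes. Rpl10a, a protein of the large subunit's stalk on the side away from the P proteins, rose by 1.28 (SE 0.203, adjusted p = 0.000477), from 133, 145, 194 and 201 CPM to 343, 409, 433 and 447 CPM. Rpl24, which bridges the subunits, rose by 1.34 (SE 0.278, adjusted p = 0.00399), from 38.8 to 95 CPM up to 131 to 171 CPM. Both genes separated the groups completely. The uninjured first-series library, mouse 8, had the 95 CPM of Rpl24, above the other 3 at 38.8 to 64.5 CPM. Rpl14 rose by 0.86 (SE 0.21, adjusted p = 0.012), from 220, 230, 255 and 308 CPM to 367, 408, 519 and 546 CPM. Rpl32l, annotated as a processed pseudogene, rose by 1.05 (SE 0.242, adjusted p = 0.00805). Rpsa (1.05), Rplp2 (0.70), Rpl8 (0.75), Rps15, Rpl7l1, Rpl5, Rps3, Rpl6 and Rps14 were also called. Of the 13, Rpsa, Rpl14, Rpl8, Rplp2 and Rpl6 were called in control hepatocytes too.

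The members went different ways in macrophages more than in hepatocytes. Of the 85, 54 had values above 0 and 31 below, and the lowest was -1.29. Rps27, a small subunit protein, had -0.79 (SE 0.29, adjusted p = 0.0778), and Rps6 had -1.09 with an SE of 0.692. Rps29, which stood at 413 to 961 CPM in uninjured and 419 to 563 CPM in injured controls, was not called. The count was 6 without control mouse 15 or 16 after CCl4, 7 without uninjured control mouse 6, 8 without uninjured mouse 9, and 6 in the second series alone. DESeq2 gave 20. Of 10 monocyte markers 7 rose in this comparison, among them Ccr2 and Ly6c2, and 4 of 11 Kupffer cell and 3 of 12 hepatocyte markers fell. Over all 10815 genes 732 rose and 691 fell. The hepatocyte marker sum was 17358 to 19049 CPM in uninjured and 476 to 18997 CPM in injured controls. The monocyte sum was 2470 to 4203 CPM and 3309 to 4703 CPM. Mice 16 and 15 had the lowest hepatocyte sums after CCl4 (476 and 1079 CPM) and the largest shares of the members (2.74% and 2.73%). Other macrophage groups did not all pair them so. The largest share was at the highest sum in uninjured controls (mouse 7, 2.26% and 19049 CPM) and at the lowest in uninjured knockouts (mouse 20, 2.59% and 4496 CPM). In knockouts after CCl4 it was at a high sum (mouse 14, 2.78% and 33294 CPM). The part of a change in the mix of cells was not tested.

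No member was called by edgeR in the other macrophage comparisons. Knockout over control gave 0 of 85 without CCl4 (0.166% of all genes, median 0.15, 11 members with an unadjusted p under 0.05) and 0 after it (0.0647%, median -0.2, 6 members). CCl4 in knockout mice gave 0 (0.878%, median -0.04, 13 members), where Rpl24 had 0.80 (SE 0.276, adjusted p = 0.229) and Rps6 -2.04 (SE 0.702, adjusted p = 0.228). The test of the difference in the CCl4 effect between genotypes gave 0 (0.194%, median -0.34, 9 members). Rpl10a had -1.02 there (SE 0.284, adjusted p = 0.143), and stood at 211, 218, 250 and 307 CPM in uninjured and at 235, 269, 329 and 348 CPM in injured knockouts. The uninjured knockout values all lay above the uninjured controls of 133 to 201 CPM. The median without CCl4 was 0.03, 0.05 and 0.07 without control mouse 8, knockout mouse 20 and control mouse 9, and 0.24 without control mouse 7. That after CCl4 was -0.1 without control mouse 15 and -0.12 without knockout mouse 13. DESeq2 called 1 member for the difference between genotypes and 0 in the other 3. Without a filter on low counts edgeR called 2, 1, 2 and 1 members in the order given.

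Between cell types, more ribosomal protein genes were higher than lower in macrophages of uninjured mice, and fewer were called higher after injury. In controls 39 of 85 were higher and 4 lower in macrophages, against 34.3% and 28.5% of all 12052 genes tested in both tables (4 against 6 libraries). The members' median log2 difference was 0.51 and that of all genes 0.14. In knockouts 30 were higher and 1 lower (32.1% and 24.4% of all genes), with medians of 0.41 and 0.23. The share of members that were higher was thus above the background in controls and near it in knockouts. In controls after CCl4 5 were higher and 1 lower (24.1% and 22.4%), with medians of 0.21 and 0.08. The members' median there was 0.06 without hepatocyte mouse 12, 0.13 without mouse 15 of either cell type and 0.47 without hepatocyte mouse 16. In knockouts after CCl4 2 were higher and 11 lower (26.8% and 23.3%), with a median of -0.29 against 0.05. That median was -0.04 without hepatocyte mouse 18, and with library totals in place of TMM factors it was 0.24 against 0.59 for all genes. As a share of counts, the macrophage mean was 2.37 times the hepatocyte mean in controls, 2.07 in knockouts, 1.75 in controls after CCl4 and 1.27 in knockouts after CCl4, with overlap only in the last. The macrophage library held the larger share for 15 of the 15 mouse numbers found in both cell types, by 1.13 to 3.24 times.

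**Figure D5:**
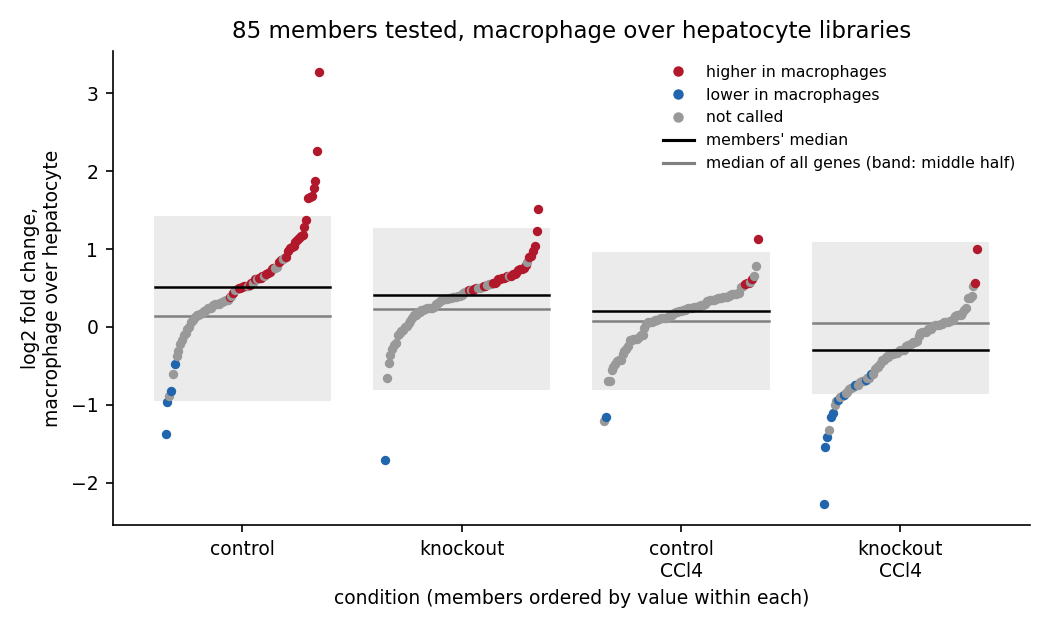
Log2 fold change of macrophage over hepatocyte libraries for the 85 members in each of 4 conditions, ordered by value, coloured by call, with the members' median in black and the median of all genes as a grey line and their interquartile range as a grey band. The members lie mostly above the grey line in uninjured mice and below it in knockouts after CCl4, and their spread is narrower than that of all genes.

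Rps29 had the lowest p in both uninjured comparisons. With all libraries of both cell types scaled together, as in the rest of this comparison, it stood at 339, 475, 661 and 741 CPM in control macrophages and at 140 to 185 CPM in control hepatocytes (median 154 CPM), with no overlap. That was a log2 difference of 1.79 (SE 0.199, adjusted p = 4.17e-09). In knockouts the difference was 1.51 (SE 0.21, adjusted p = 4.21e-07). Rpl35a (1.65), Rps15a (1.68) and Rps12 (3.27, SE 0.547, adjusted p = 7.13e-06) followed in controls. Rps12 stood at 22, 44.6, 130 and 142 CPM in control macrophages and at 5.1 to 19.1 CPM in control hepatocytes, so the groups did not overlap but the macrophage values spread widely. Both genes fused to ubiquitin or its relative were higher in control macrophages, Rps27a by 1.17 and Fau by 0.44. Fau was called in all 4 conditions, with 0.80 in knockouts, 1.13 in controls after CCl4 and 1.00 in knockouts after CCl4 (SE 0.199, adjusted p = 0.000126). After CCl4 it stood at 588, 599, 719 and 843 CPM in control macrophages and at 275, 276 and 390 CPM in control hepatocytes, with no overlap, whereas without CCl4 the ranges overlapped, with macrophages at 443 to 585 CPM and 1 of the 6 hepatocyte libraries, mouse 19, inside that range. Rplp0, Rplp2 and Rpl6 were called higher in all conditions but knockouts after CCl4, and Rps14 in all but uninjured controls.

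Rps27l went the other way. This second copy of Rps27 is induced by p53 after DNA damage, and it was lower in macrophages in all 4 conditions: -1.37 in controls (SE 0.264, adjusted p = 4.29e-05), -1.71 in knockouts (SE 0.275, adjusted p = 4.12e-06), -1.15 in controls after CCl4 (SE 0.295, adjusted p = 0.00176) and -1.54 in knockouts after CCl4 (SE 0.282, adjusted p = 4.84e-05). With library totals in place of TMM factors the third was -0.59 (adjusted p = 0.11). In knockouts without CCl4 it stood at 104, 111, 114 and 146 CPM in macrophages and at 319, 340, 380, 431 and 471 CPM in hepatocytes, far apart. Its common copy Rps27 was higher in macrophages of uninjured controls (1.37, SE 0.239, adjusted p = 1.15e-05) and knockouts (0.98), at 213, 293, 388 and 527 CPM in control macrophages and 101 to 169 CPM in control hepatocytes. Hepatocyte values of Rps27l also followed the file series, with 192 to 230 CPM in the first and 243 to 441 CPM in the second when hepatocyte libraries were scaled alone. Rpl7l1, Rpl24 and Rpl10a were the other 3 lower in control macrophages, by 0.82, 0.96 and 0.47. The log2 difference for Rpl10a, -0.47, had an adjusted p of 0.045. With library totals in place of TMM factors its sign was reversed, at 0.27 (adjusted p = 0.235).

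In knockouts after CCl4 the 11 genes lower in macrophages included Rps2 (-1.10, SE 0.236, adjusted p = 0.000325), Rpl4 (-0.74, SE 0.211, adjusted p = 0.00427), Rplp1 (-0.94, SE 0.27, adjusted p = 0.00465), Rpl27a, Rpl35 and Rpl39. Rps6 had the largest difference, -2.27 (SE 0.766, adjusted p = 0.0149), at 2.35, 4.3, 5.52 and 11.3 CPM in macrophages and 6.67, 18.4, 19.1 and 56.1 CPM in hepatocytes, with overlap. The count called there was 7 without hepatocyte mouse 18 and 23 without control hepatocyte mouse 16. Among controls after CCl4 it was 3 without hepatocyte mouse 15, 14 without hepatocyte mouse 16, and 2 in the second series alone, where the members' median was -0.06.

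The effect of CCl4 itself differed between cell types for 3 of 85 members in controls, all lower in macrophages, a share no larger than the 3.9% of all genes in that direction. They were Rps12 (-3.43, SE 0.807, adjusted p = 0.0131), Rps15a (-1.52) and Rps29 (-1.28). All 3 rose in control hepatocytes (2.16, 1.00 and 0.77), while in control macrophages they had values below 0 that were not called (-1.29, -0.51 and -0.49). With mouse number as a replicate block 0 members were called. The count was 1 without hepatocyte mouse 16, 7 without macrophage mouse 8 and 1 in the second series alone. The median difference was -0.31 (all genes -0.2), -0.13 without hepatocyte mouse 16 and -0.15 without macrophage mouse 7. In knockouts 0 members were called by edgeR, against 0.0415% of all genes, and 1 by DESeq2. There 33 had an unadjusted p under 0.05, all with a lower effect in macrophages, and the median difference was -0.68 (all genes 0.01), or -0.44 without hepatocyte mouse 18.

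How far a gene's 3′ end is its own bears on these values. For 83 members a principal transcript was annotated, and its last 300 bases were cut into windows of 50 bases, the read length. In 24 members no window occurred in another annotated gene, among them Rpsa, Rplp0, Rpl14 and Rps3. In 4 members, Rpl10, Rpl9, Rpl36a and Rps27, every window did. The value was 93.6% unique for Rplp2, 78.1% for Rps27l, 43.4% for Rps19, 12.7% for Rpl10a and 5.58% for Rps12, where 23 other genes shared windows. Among genes with at least 75% of windows unique, 12 of 33 rose with CCl4 in control hepatocytes (median 0.51), and among the rest 9 of 48 (median 0.57). In knockouts it was 12 of 33 (0.57) and 8 of 48 (0.45), and in control macrophages 8 of 33 (0.30) and 4 of 48 (0.13). The 5 remaining members, Rpl32l, Rpl6l, Rps3a2, Rps3a3 and Rps4l, are annotated as processed pseudogenes. Rps3a3 stood at 94.7 to 145 CPM in uninjured control hepatocytes, where the protein-coding Rps3a1 stood at 0.205 to 3.61 CPM. Rps3a3 rose with CCl4 by 0.69 in controls and 0.71 in knockouts. How the counting treated reads that match several places is not given in the sources used here, so counts of such genes may be split with their copies. A unique tail did not mean a gene without counted copies. All windows of Rps15a and Rpl15 were unique, yet in hepatocytes their named copies held 1.46 and 0.577 times their own counts. For Rpsa and Rpl14 the copies held 0.194 and 0.152 times, for Rplp0 0.000402 times, and Rps3 had 0 copies.

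Genes with and without C and 4 pyrimidines at the annotated start were among those that rose. Of the 14 members with C and 4 pyrimidines at the start, 4 rose with CCl4 in control hepatocytes and 3 in knockouts, with medians of 0.60 and 0.59. Of the 48 tested with another start, 12 and 10 rose, with medians of 0.52 and 0.45. That set is not free of pyrimidine starts. In Rpl27a and Rpl7a a long run covers the start base, and in Rpl18 it begins 1 base after it. Over all genes 13.7% and 7.02% rose. The difference between these sets was not tested.

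Other genes of the ribosome's supply are given beside the shares of all genes that rose with CCl4, 13.7% in control hepatocytes, 7.02% in knockout hepatocytes and 6.77% in control macrophages. Of 50 factors of ribosome assembly tested, 12 rose and 0 fell with CCl4 in control hepatocytes (median 0.37), among them the box C/D proteins Nop58 (1.47, SE 0.195, adjusted p = 1.07e-05) and Nop56 (1.22) and the nucleolar Nolc1 (0.97). In knockouts 1 of the 50 rose, Nop58 (0.94, SE 0.194, adjusted p = 0.00241), with a median of 0.09. Of 20 elongation factors and other genes with TOP mRNAs, 4 rose and 1 fell in controls and 3 rose in knockouts. Eef1g and Rack1 rose in both, and Eif4b fell by 0.91 in controls. Of 14 genes of RNA polymerase I, 1 rose in controls, Taf1d, and 0 in knockouts. Myc, which drives many of these genes, rose by 2.28 in controls (SE 0.404, adjusted p = 0.000208). Genes of the mitochondrial ribosome were split, with 3 up and 5 down of 74 in controls and 4 up and 1 down in knockouts. In control macrophages 5 of 20 TOP genes rose with CCl4, led by Eef1g (1.44, SE 0.205, adjusted p = 0.000195), 1 of 51 assembly factors rose, Ncl, and 1 fell, Sbds, and 7 of 73 genes of the mitochondrial ribosome rose. Macrophages and hepatocytes of uninjured controls differed in opposite ways for the 2 kinds of ribosome: 39 of 85 cytosolic genes were higher and 4 lower in macrophages, while 2 of 74 mitochondrial ones were higher and 56 lower (median -1.08), against 34.3% and 28.5% of all genes.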

How the data were processed

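The authors deposited 2 tables of raw read counts per gene from 3′-end RNA sequencing (single reads of 50 bases). The submitters' processing notes name Trimmomatic 0.39 for trimming, HISAT2 2.1.0 for alignment and the build mm10. Which counter, annotation and strand setting the authors used is not given in the sources used here. Counts were tested as deposited with edgeR 4.0.16 (R 4.3.3): filterByExpr, TMM factors and the robust quasi-likelihood test, with 1 fit over the 4 groups of each cell type and 1 over all 8 groups and the 22586 genes in both tables. P-values were adjusted by Benjamini and Hochberg's method over all genes tested, and called means an adjusted p under 0.05. The SE is the log2 fold change divided by the root of F. CPM values of single genes were computed here from TMM-scaled library sizes, and marker sums from library totals without factors. The floor of 3 counts was 0.398 to 5.03 CPM, also by library totals. Replicates are mice, and 58 pairs of replicates differed by 5.76 to 48.6 in chi-square per degree of freedom, so none was a repeat deposit. Alternatives were RLE factors, library totals, no filter, DESeq2 1.42.0, TMM without the members, the file series, the libraries with conflicting labels, mouse number as a block and leaving out each library. The tests were tried on simulated data. For each comparison the text names the 4 called members of lowest p in each direction, the 3 farthest above and below the members' median, and members of fixed roles. Others, such as Rps10 and Rps23 by file series, were chosen after their values were seen. The members and lists were chosen with earlier results of these data known.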

Additional observations from a re-analysis of the deposited data

Results flagged for a closer look

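Rps10 in the macrophages of control mouse 11 after CCl4 stood at 106 CPM, far from the other 3 libraries of its group at 10, 10.4 and 12.1 CPM. That library is the only first-series one of its group and 1 of the 2 with conflicting labels. Chance alone sets a sample apart in this way in about 1 in 20 groups.

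The effect of CCl4 in controls was lower in macrophages than in hepatocytes for Rps12 (-3.43 on the log2 scale), Rps15a (-1.52) and Rps29 (-1.28), by the test of the difference itself. These 3 of 85 members are no larger a share than the 3.9% of all genes called in that direction. All 3 rose in hepatocytes, and their values in macrophages were below 0 and not called (-1.29, -0.51 and -0.49). With mouse number as a replicate block 0 members were called. In hepatocytes 1 of the 3 injured controls, mouse 16, carries the high Rps12 value.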

How the results depend on the processing

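The number of members called depended on the file series, the scaling and single libraries, and where not stated the cause was not tested. With the file series as a term, 40 were called for CCl4 in control hepatocytes and 0 for the knockout without CCl4. In the second series alone the counts were 4 and 0, and 6 for CCl4 in control macrophages, 2 for macrophage over hepatocyte in controls after CCl4 and 1 for the difference in the CCl4 effect in controls. There the median for the knockout after CCl4 in hepatocytes was -0.11 and that for macrophage over hepatocyte in controls after CCl4 was -0.06. Without a filter on low counts, the macrophage counts were 7 for CCl4 in controls, 2 for the knockout, 1 for the knockout after CCl4, 2 for CCl4 in knockouts and 1 for the interaction. DESeq2 gave 20 for CCl4 in control macrophages, 1 for the macrophage interaction and 1 for the difference in the CCl4 effect in knockouts. With library totals in place of TMM factors, chosen after seeing the data, counts were 64, 25 and 39 for CCl4 in controls, the knockout and CCl4 in knockouts in hepatocytes, 30 for CCl4 in control macrophages, and 74, 68, 45 and 20 for macrophage over hepatocyte in controls, knockouts, controls after CCl4 and knockouts after CCl4. The median of the last was then 0.24, and the log2 difference of Rpl10a in controls was 0.27, with its sign reversed. With the libraries of conflicting labels left out or moved to knockouts, macrophage over hepatocyte in controls after CCl4 gave 3 and 3.

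With mouse number as a replicate block that count was 11, and the difference in the CCl4 effect in controls gave 0. The block changed no other count by over 1.5 times. The labels do not say that equal numbers are the same animal. Over 15 numbers the deviations correlated by -0.11 to 0.31 (median 0.09), 6 were over 0.1, and 8 matched their own number best. How many would match by chance was not computed, so these values do not decide whether equal numbers are the same animal. In the main fit the libraries were treated as sharing only a number.

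Leaving out each library gave 10 to 27 members for CCl4 in control hepatocytes, 7 to 24 in knockouts, 0 to 12 for the knockout and 0 to 7 for the knockout after CCl4. In macrophages CCl4 in controls gave 6 to 15. Macrophage over hepatocyte gave 30 to 48, 22 to 33, 3 to 14 and 7 to 23 in the order above, and the difference in the CCl4 effect in controls 1 to 7. Without mitochondrially encoded counts the median shares were 1.1%, 1.85%, 1.51% and 2.34% in hepatocytes of controls, controls after CCl4, knockouts and knockouts after CCl4, and 3.02% in macrophages of controls after CCl4. Small libraries limit low members such as Rps6.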
